A study of Mus musculus with 12 samples.

Results

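Collagen hydroxylases, crosslinking enzymes and the collagen chaperone HSP47 were described in C2C12 myotubes treated with BAM15, a small molecule that uncouples mitochondrial respiration from ATP synthesis. The 10 genes were fixed by symbol and matched to Ensembl identifiers. They comprise the prolyl 4-hydroxylase subunits P4ha1 and P4ha2, the lysyl hydroxylases Plod1, Plod2 and Plod3, the chaperone gene Serpinh1, the procollagen C-proteinase enhancer gene Pcolce, and the lysyl oxidases Lox, Loxl1 and Loxl2. All 10 were among the 15113 genes of the count table and among the 12730 genes that were tested. C2C12 is an established line of mouse myoblasts, which leave the cell cycle and fuse into multinucleated myotubes in low serum. Both conditions held C2C12 cells differentiated into myotubes. They differed only in 16 h of exposure to 20 μM BAM15 in DMSO (6 libraries) or to the vehicle (6 libraries). Transcripts that mark cycling and unfused cells were also detected in both conditions, as given below. RNA was read from the 3′ end of polyadenylated transcripts, with total counts of 13983725 to 18751780 per BAM15 library and 15299135 to 18866728 per vehicle library. Nothing in the labels ties the libraries of a condition to separate cultures, so the p-values measure only the spread between these libraries, which may be technical.

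Collagen chains are modified while they enter the endoplasmic reticulum. Prolyl hydroxylases make the hydroxyproline that keeps the triple helix stable at body temperature, lysyl hydroxylases prepare lysines for sugars and crosslinks, and HSP47 holds the folded helix until it leaves for the Golgi. After secretion the propeptides are removed, and lysyl oxidases convert lysine and hydroxylysine side chains to aldehydes that join neighbouring molecules in the fibril. The hydroxylases need iron, oxygen, 2-oxoglutarate and ascorbate, and the lysyl oxidases need copper. In muscle these steps build the connective tissue sheath around fibres, and cultured myogenic cells make fibrillar collagen themselves.

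Promoter windows are shown because several of these genes are textbook targets of hypoxia-inducible factor (HIF), whose core binding letters are ACGTG and GCGTG, and because Serpinh1 is a classic target of heat shock factor. The 250 bases before the start site were taken from RefSeq on the GRCm38.p6 build and are written 5′ to 3′ on the strand of the gene, with ACGTG and GCGTG on either strand in capitals. RefSeq entries were matched for 6 of the 10 genes (P4ha1, P4ha2, Plod1, Plod3, Serpinh1 and Pcolce).
P4ha1 (chr10:59323046-59323295, plus strand): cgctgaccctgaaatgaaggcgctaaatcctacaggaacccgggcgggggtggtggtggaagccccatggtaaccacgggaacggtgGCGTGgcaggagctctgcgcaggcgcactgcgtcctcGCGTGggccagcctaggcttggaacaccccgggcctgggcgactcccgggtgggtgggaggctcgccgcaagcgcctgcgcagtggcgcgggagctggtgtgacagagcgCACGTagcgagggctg
P4ha2 (chr11:54100674-54100923, plus strand): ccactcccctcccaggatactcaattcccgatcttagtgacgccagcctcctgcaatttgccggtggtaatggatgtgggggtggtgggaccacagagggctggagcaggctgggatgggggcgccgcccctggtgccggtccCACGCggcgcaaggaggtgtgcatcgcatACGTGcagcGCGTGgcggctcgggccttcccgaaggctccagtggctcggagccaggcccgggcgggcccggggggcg
Plod1 (chr4:147936777-147937026, minus strand): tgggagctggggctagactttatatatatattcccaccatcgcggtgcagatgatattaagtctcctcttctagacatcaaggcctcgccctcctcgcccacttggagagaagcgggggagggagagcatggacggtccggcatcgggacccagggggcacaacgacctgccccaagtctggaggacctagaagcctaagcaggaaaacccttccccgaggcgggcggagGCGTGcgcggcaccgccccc
Plod3 (chr5:136986769-136987018, plus strand): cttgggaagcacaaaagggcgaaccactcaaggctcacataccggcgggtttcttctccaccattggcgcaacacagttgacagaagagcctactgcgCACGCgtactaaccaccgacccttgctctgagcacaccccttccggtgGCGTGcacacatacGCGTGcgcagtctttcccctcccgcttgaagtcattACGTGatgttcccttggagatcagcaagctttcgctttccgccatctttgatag
Serpinh1 (chr7:99353240-99353489, minus strand): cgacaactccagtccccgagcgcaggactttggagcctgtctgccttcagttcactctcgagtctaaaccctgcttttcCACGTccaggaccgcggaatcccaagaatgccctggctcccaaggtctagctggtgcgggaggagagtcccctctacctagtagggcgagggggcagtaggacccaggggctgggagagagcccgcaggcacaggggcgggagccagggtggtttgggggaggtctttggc
Pcolce (chr5:137611405-137611654, minus strand): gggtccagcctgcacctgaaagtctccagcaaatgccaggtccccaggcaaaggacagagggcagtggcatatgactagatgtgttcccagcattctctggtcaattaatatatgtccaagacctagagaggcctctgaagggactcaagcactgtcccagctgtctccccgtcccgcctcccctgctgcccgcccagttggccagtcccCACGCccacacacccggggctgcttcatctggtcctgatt
All 6 windows held at least 1 of the 2 letter strings, beside 38.6% of the 32851 mouse promoter windows of this length. P4ha1, P4ha2 and Plod3 each held ACGTG as well as GCGTG, as did 6.13% of all windows (16.6% held ACGTG and 28.2% held GCGTG, each with or without the other). The Serpinh1 window held ACGTG only, read on the opposite strand from 171 to 167 bases before the start site, and the Pcolce and Plod1 windows held GCGTG only. The heat shock element letters GAANNTTC, which occur in 6.69% of windows, were in none of the 6. The reverse arrangement TTCNNGAA, found in 7.17% of windows, occurred only in P4ha2, from 52 to 45 bases before its start. Both ACGTG and GCGTG contain the pair CG, of which the 6 windows held from 5 (Pcolce) to 24 (P4ha1). The shares over all windows were not matched for base composition, so no enrichment is read from them. A match of letters is a description and not a binding site. The RefSeq starts of P4ha2 and Pcolce lie inside the gene bodies drawn by the GENCODE annotation, so other start sites of these genes were not covered.

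The myotube label held in both conditions. Each of the 14 fixed myotube markers was detected, and their summed normalized count ranged from 538424 to 624057 in vehicle libraries and from 489196 to 657515 in BAM15 libraries. The 10 markers of cycling cells summed to 9307 to 9925 in vehicle and 3126 to 3680 after BAM15, and all 10 passed the test as lower. The 12 markers of unfused myoblasts summed to 15537 to 16364 and 13033 to 15020. The fibroblast and adipogenic markers present in the table (6 of 9, with Thy1, Tcf21 and Adipoq not among them) summed to 5159 to 6013 and 2533 to 3003. Outside the cycling list the single genes did not all fall. Of the unfused myoblast markers, 5 of 12 passed the test as lower and 1 as higher. Of 5 tested fibroblast and adipogenic markers, 2 passed as lower and 0 as higher. Over all tested genes 17.7% passed as lower and 18.7% as higher. Most of the last sum was Ly6a, with 2277 to 2766 after BAM15. The lower sums accompany every decrease given below, and their part in these decreases was not tested. In bulk RNA fewer cells of a type and less RNA per cell cannot be told apart.

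A gene was called changed at an adjusted p below 0.01 and a base mean (the mean normalized count over all libraries) above 50, the study's own thresholds without its 2-fold criterion. Tests were edgeR's quasi-likelihood tests with Benjamini-Hochberg adjustment over all 12730 genes, and every adjusted p and call below comes from this fit unless another test is named. Of the 10 genes, 8 were called: 7 were lower after BAM15 (P4ha1, P4ha2, Plod2, Pcolce, Lox, Loxl1 and Loxl2) and 1, Plod3, was higher. Over all tested genes 36.4% were called, 17.7% as lower and 18.7% as higher. With the 2-fold criterion added, 3 of the 10 remained (Lox, Loxl2 and Pcolce, all lower), against a background of 7.28% in either direction and 3.58% as lower. The BAM15 and vehicle libraries did not overlap in 7 genes that were lower and in Plod3, while such separation was seen in 34.2% of all tested genes (17.0% lower and 17.1% higher). The median log2 fold change of the 10 genes was -0.39, and that of all tested genes was 0.02. Their summed normalized count was 21405 to 22792 in vehicle and 13638 to 15098 after BAM15.

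**Figure D1:**
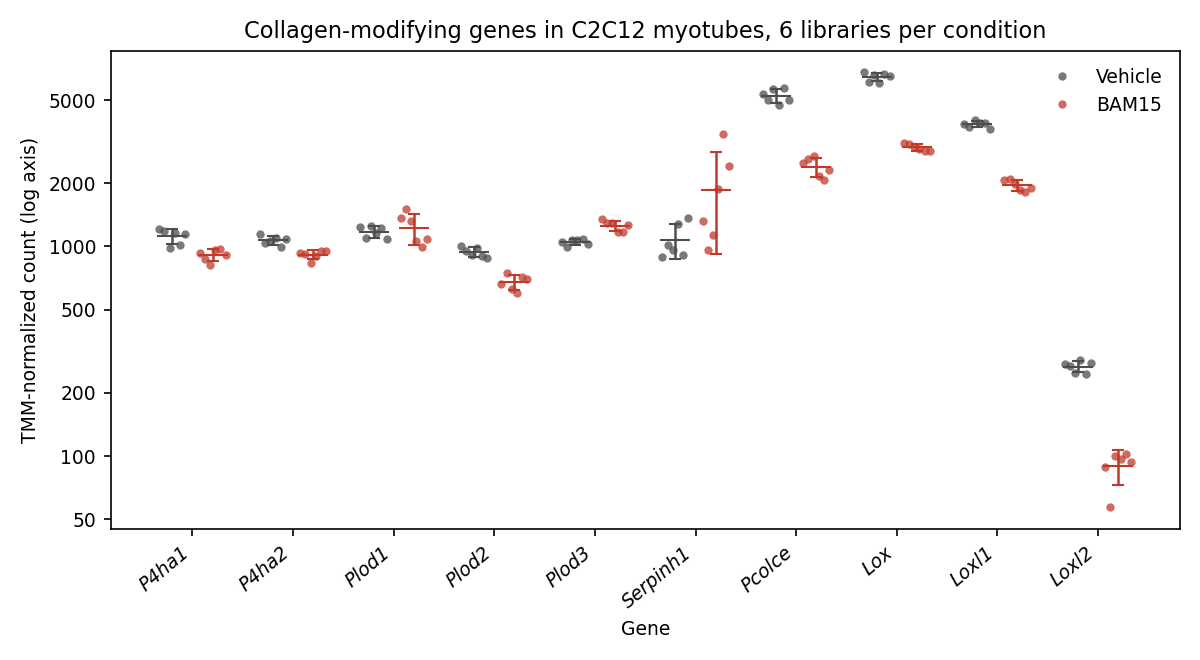
TMM-normalized counts (log axis) of the 10 genes in each of 6 vehicle (grey) and 6 BAM15 (red) libraries, with bars for the mean and SD. Lox, Loxl1, Loxl2 and Pcolce are clearly separated with BAM15 below vehicle, Plod3 has BAM15 above vehicle, and Serpinh1 and Plod1 overlap, with BAM15 values of Serpinh1 spread from 958 to 3454.

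The prolyl 4-hydroxylase subunits were modestly lower. P4ha1 and P4ha2 encode alternative catalytic alpha subunits of the enzyme that hydroxylates proline in collagen repeats. Normalized counts of P4ha1 (chr10:59323296-59373304, plus strand) had a lowest, median and highest value of 985, 1158 and 1213 in vehicle and of 813, 921 and 968 after BAM15. The highest BAM15 library was below the lowest vehicle library, and the log2 fold change was -0.30 ± 0.07 (SE, n = 6 per condition, edgeR adjusted p = 0.00155). For P4ha2 (chr11:54100095-54131665, plus strand) the values were 989.7, 1075 and 1149.9 in vehicle and 834, 925 and 954 after BAM15. These groups did not overlap either, with a log2 fold change of -0.23 ± 0.05 (edgeR adjusted p = 0.00221). P4ha1 made up 51.1% ± 1.71 of the reads of this pair in vehicle and 49.9% ± 1.15 after BAM15 (SD, n = 6), a difference of -1.18 percentage points that did not exceed the spread between libraries (two-sided exact permutation test, p = 0.193, adjusted over 4 ratios the same). Both subunits lost significance when the 3 BAM15 and 3 vehicle libraries numbered 4 to 6 were tested alone (edgeR adjusted p = 0.0366 for P4ha1 and 0.0780 for P4ha2), with log2 fold changes of -0.24 and -0.19.

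P4ha3, the third alpha subunit gene and not among the 10, also fell, from 90.4 to 146 normalized counts in vehicle to 17.3 to 26.8 after BAM15 (log2 fold change -2.53 ± 0.16, edgeR adjusted p = 3.31e-09). It held 5.43% ± 1.07 of alpha subunit reads in vehicle and 1.17% ± 0.196 after BAM15 (SD, n = 6), so nearly all alpha subunit reads in both conditions were of P4ha1 and P4ha2. The beta subunit gene P4hb, which encodes protein disulfide isomerase and completes the enzyme, did not pass the test (log2 fold change 0.05 ± 0.05, edgeR adjusted p = 0.348).

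The 3 lysyl hydroxylases went different ways. Plod2 encodes the enzyme that hydroxylates lysines of the collagen telopeptides, the ends where crosslinks form, and it was lower. Its normalized counts (chr9:92542223-92608428, plus strand) ran from 883 through a median of 932 to 1011 in vehicle and from 599 through 681 to 744 after BAM15. All 6 BAM15 libraries lay below all vehicle libraries, and Plod2 fell by 0.48 on the log2 scale (SE 0.06, edgeR adjusted p = 1.41e-05). Plod3 encodes a lysyl hydroxylase that also adds glucose to hydroxylysine-linked galactose. It ran from 997 through 1061 to 1080.4 in vehicle and from 1169.8 through 1275 to 1347 after BAM15 (chr5:136987019-136996648, plus strand). Every BAM15 library was above every vehicle library, and Plod3 rose by 0.26 on the log2 scale (SE 0.05, edgeR adjusted p = 6.29e-04). In the libraries numbered 4 to 6 alone the difference of Plod3 was 0.17 and no longer passed (edgeR adjusted p = 0.0988).

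Plod1 encodes the isoform that mainly hydroxylates lysines within the triple helix, and it did not pass the test. It had a lowest, median and highest count of 1086, 1194 and 1252 in vehicle and of 997, 1208 and 1518 after BAM15 (chr4:147909753-147936767, minus strand). The groups overlapped, with a log2 fold change of 0.06 ± 0.10 (95% interval -0.13 to 0.25, edgeR adjusted p = 0.616). The BAM15 libraries of Plod1 were more spread than those of vehicle, with coefficients of variation of 17.0% and 6.31%.

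The balance within the lysyl hydroxylases therefore shifted, as measured within each library where no scaling between libraries enters. Plod2 made up 28.1% to 31.3% of the reads of the 3 genes in vehicle libraries and 19.2% to 24.8% in BAM15 libraries. The mean share was 29.7% ± 1.37 in vehicle and 21.4% ± 2.08 after BAM15 (SD, n = 6), a difference of -8.28 percentage points (two-sided exact permutation test, p = 0.00216, the smallest that 6 against 6 allows, adjusted p over 4 ratios = 0.00433). The share of Plod3 was 33.2% ± 0.791 in vehicle and 39.9% ± 1.91 after BAM15, and that of Plod1 was 37.1% ± 1.18 and 38.6% ± 3.24. With 3′ reads, these shares count transcripts detected and were not divided by transcript length.

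**Figure D2:**
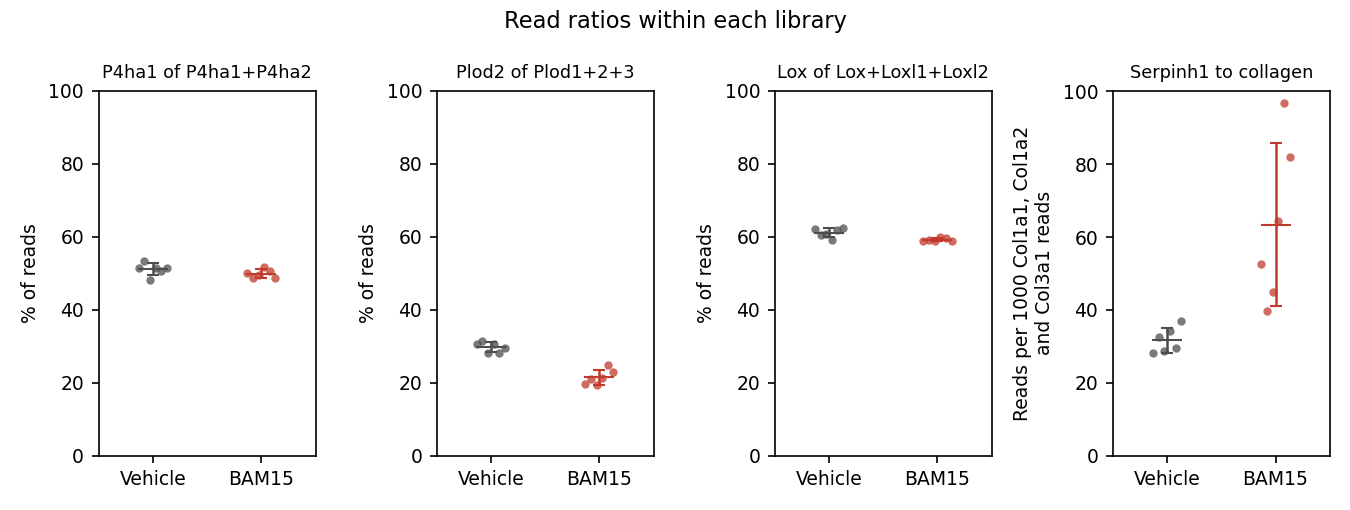
Read ratios within each library for 6 vehicle (grey) and 6 BAM15 (red) libraries, with bars for the mean and SD: percent of reads for P4ha1 of both alpha subunits, for Plod2 of the 3 lysyl hydroxylases and for Lox of the 3 lysyl oxidases, and Serpinh1 reads per 1000 reads of Col1a1, Col1a2 and Col3a1. The P4ha1 shares overlap around 50%, the Plod2 shares fall from a mean of 29.7% to 21.4%, the Lox shares differ by 1.95 percentage points, and the Serpinh1 ratio rises from a mean of 31.7 to 63.4.

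Serpinh1, the gene of the collagen-specific chaperone HSP47, was the most variable of the 10, with a coefficient of variation of 50.8% between BAM15 libraries. In vehicle libraries 1 to 6 its normalized counts were 888, 1020.0, 959, 1286, 908 and 1364 (chr7:99345376-99353239, minus strand). In BAM15 libraries 1 to 6 they were 1329, 958, 1134, 1887, 3454 and 2417. BAM15 libraries 4, 5 and 6 exceeded every vehicle library, while libraries 1, 2 and 3 lay within the vehicle range. The mean was 1071 ± 203 in vehicle and 1863 ± 946 after BAM15 (SD, n = 6). The log2 fold change of 0.80 ± 0.29 (95% interval 0.23 to 1.36) did not pass the threshold of 0.01 (edgeR adjusted p = 0.0335). Without BAM15 library 5 it was 0.53 (edgeR adjusted p = 0.0792).

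The ratio of the chaperone to its main clients was higher after BAM15. Serpinh1 reads per 1000 reads of Col1a1, Col1a2 and Col3a1 were 28.3 to 36.9 in vehicle libraries and 39.8 to 96.8 in BAM15 libraries, without overlap. The means were 31.7 ± 3.41 and 63.4 ± 22.3 (SD, n = 6), a difference of 31.7 (two-sided exact permutation test, p = 0.00216, adjusted p over 4 ratios = 0.00433). Within the libraries numbered 1 to 3 the difference was 15.9, and within those numbered 4 to 6 it was 47.5. In each of these comparisons of 3 with 3 the BAM15 libraries were all higher, and the exact permutation p was 0.1, the smallest possible. The denominator moved too: Col1a1 and Col3a1, chains of the fibrillar collagens I and III, fell (log2 fold change -0.86 and -0.24, edgeR adjusted p = 5.29e-07 and 0.00311). The ranges of Col3a1 overlapped, and it did not pass in libraries numbered 4 to 6 alone (-0.22, edgeR adjusted p = 0.0522). Col1a2, the partner chain of Col1a1, did not pass (0.00 ± 0.16, edgeR adjusted p = 0.992), with a sign that changed with the scaling used and with the library numbers. It was -0.26 in libraries numbered 1 to 3 (edgeR adjusted p = 8.33e-04, past the threshold) and 0.19 in those numbered 4 to 6 (edgeR adjusted p = 0.330).

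The library numbers went with a split among BAM15 libraries that earlier results of these data had shown. The labels do not say that a number marks a batch, so libraries 1 to 3 and 4 to 6 are sets of library numbers and not groups of the study. BAM15 libraries 4 to 6 differed from 1 to 3 by 1.18 on the log2 scale for Serpinh1, by -0.43 for Plod1 and by -0.26 for Pcolce. In vehicle the same differences were 0.31, -0.04 and -0.05. Plod1 counts in BAM15 libraries were 1371, 1518 and 1330.4 in numbers 1 to 3 and 1059, 997 and 1086 in numbers 4 to 6, which puts the log2 fold change at 0.23 in the first set (edgeR adjusted p = 0.0101) and at -0.16 in the second (edgeR adjusted p = 0.154). For Serpinh1 the log2 fold changes were 0.25 and 1.12 (edgeR adjusted p = 0.0446 and 0.0188). A test of the difference between the 2 sets in the BAM15 effect, added after the data were seen, gave edgeR adjusted p = 0.0621 for Plod1, 0.136 for Serpinh1 and at least 0.229 for each of the other 8 genes.

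Genes chosen after their values were seen split between the same libraries, some upward like Serpinh1 and some downward like Plod1. Crtap, which encodes a partner of prolyl 3-hydroxylase 1, had 34.6 to 93.2 normalized counts in BAM15 libraries 1 to 3 and 158 to 245 in libraries 4 to 6, and in vehicle 83.1 to 136 and 134 to 184. The cytosolic heat shock genes Hspa1b and Hspa8 had 4384 to 5342 and 999 to 1293 in the first set and 9143 to 14041 and 1769.7 to 3062 in the second. Col1a2, named as part of the collagen ratio, had 8487 to 9529 and 12847 to 16844, and in vehicle 10642 to 11453 and 9901 to 13959. Vehicle libraries of Hspa1b stayed at 183 to 266 in both sets, so its BAM15 libraries were higher in each. BAM15 libraries 4 to 6 were lower than 1 to 3 for the chaperone genes Canx (-0.47 on the log2 scale), Calr (-0.42), Pdia3 (-0.47) and Pdia4 (-0.97), for the collagen galactosyltransferase gene Colgalt1 (-0.34) and for the proteoglycan gene Bgn (-0.43). The part of these differences in the spread of Serpinh1 and Plod1 was not tested.

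**Figure D3:**
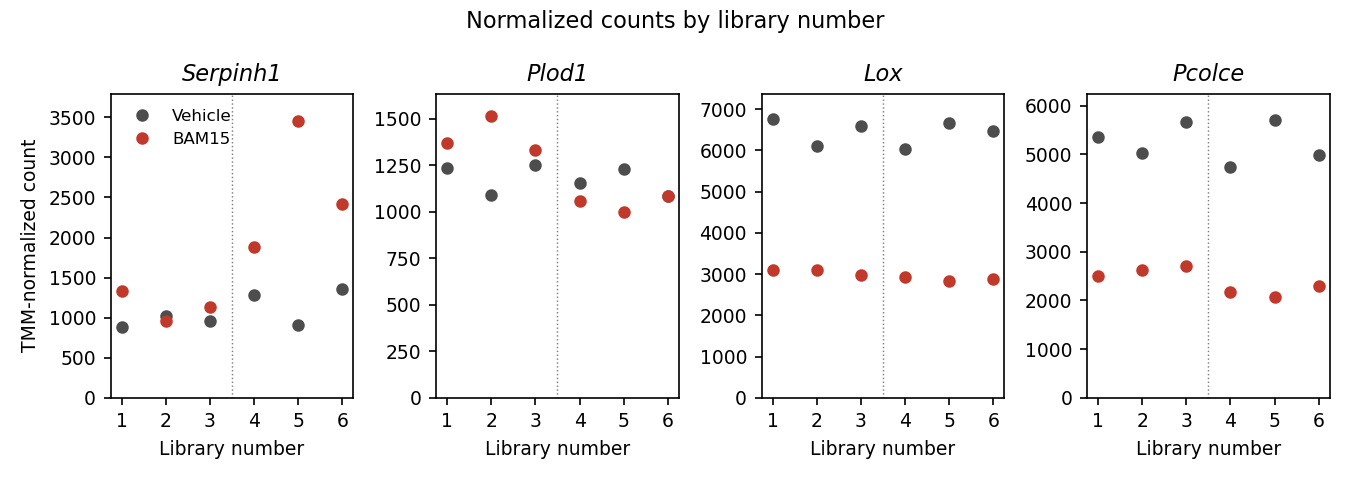
TMM-normalized counts of Serpinh1, Plod1, Lox and Pcolce against library number, with vehicle in grey, BAM15 in red and a dotted line between numbers 3 and 4. BAM15 values of Serpinh1 are higher and those of Plod1 lower in numbers 4 to 6, the BAM15 point hides the vehicle point of Plod1 at number 6, and Lox and Pcolce keep BAM15 below vehicle at every number.

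Pcolce encodes an extracellular glycoprotein that speeds removal of the procollagen C-propeptide, and it was among the most abundant of the 10 genes and more than 2-fold lower. Normalized counts had a lowest, median and highest value of 4739, 5191 and 5715 in vehicle and of 2073, 2409 and 2709.6 after BAM15 (chr5:137605103-137613784, minus strand). The groups were far apart, with a log2 fold change of -1.13 ± 0.07, or 2.19-fold lower (edgeR adjusted p = 7.80e-09). The log2 fold change was -1.04 in libraries numbered 1 to 3 and -1.25 in those numbered 4 to 6. Pcolce lies on the same chromosome as Plod3, which ends 608 kb before it and moved the opposite way. Its relative Pcolce2, not among the 10, also fell, from 549 to 607 in vehicle to 179.6 to 211 after BAM15 (log2 fold change -1.56 ± 0.06, edgeR adjusted p = 3.51e-11).

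The lysyl oxidases showed the largest decreases together with Pcolce. Lox, the founding member of the family and the most abundant of the 10 genes by 3′ read count, ran from 6046 through a median of 6539 to 6767 in vehicle and from 2846 through 2952 to 3103 after BAM15 (chr18:52516067-52529867, minus strand). No BAM15 library came near the vehicle range, and Lox was 2.17-fold lower (log2 fold change -1.12 ± 0.05, edgeR adjusted p = 7.29e-11). Coefficients of variation between libraries were 4.70% in vehicle and 3.70% after BAM15, and by p-value Lox ranked 124 of the 12730 tested genes.

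Loxl1, which encodes the family member needed for elastic fibre upkeep, followed closely. It ran from 3655 through 3861 to 3997 in vehicle and from 1828 through 1952 to 2097 after BAM15 (chr9:58287738-58313186, minus strand). The groups did not overlap, and at a log2 fold change of -0.97 ± 0.05 (1.95-fold lower, edgeR adjusted p = 5.63e-10) it stayed just inside the 2-fold line. Loxl1 crossed that line when counts were scaled by library size only (log2 fold change -1.03).

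Loxl2, which encodes an oxidase active on basement membrane collagen IV, was the least abundant of the 10 and had the largest fold decrease among them. It ran from 245 through 272 to 286 in vehicle and from 57.3 through 95.3 to 102 after BAM15 (chr14:69609068-69695834, plus strand). BAM15 library 2 stood below the other 5, which lay between 88.3 and 102, and all 6 were far below vehicle (log2 fold change -1.57 ± 0.12, 2.97-fold lower, edgeR adjusted p = 2.94e-08). Of the 351 windows of 50 bases in the last 400 bases of its annotated transcript, 99 (28.2%) also occur in transcripts of other genes, so part of its 3′ reads may not be unique to it. None of the windows of the other 9 genes is shared in this way.

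The share of Lox among reads of the 3 oxidases was 59.2% to 62.2% in the 6 vehicle libraries (mean 61.1%) and 58.7% to 59.8% in the 6 BAM15 libraries (mean 59.1%). The ranges overlapped slightly. This small difference of -1.95 percentage points exceeded the spread between libraries (two-sided exact permutation test, p = 0.00649, adjusted p over 4 ratios = 0.00866). Loxl1 made up 36.4% ± 1.12 and 39.1% ± 0.716, and Loxl2 made up 2.54% ± 0.211 and 1.80% ± 0.379. Loxl3, a further family member outside the 10, was also lower (log2 fold change -0.97 ± 0.14, edgeR adjusted p = 3.18e-05), and Loxl4 did not pass (0.76 ± 0.33, edgeR adjusted p = 0.0667).

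**Figure D4:**
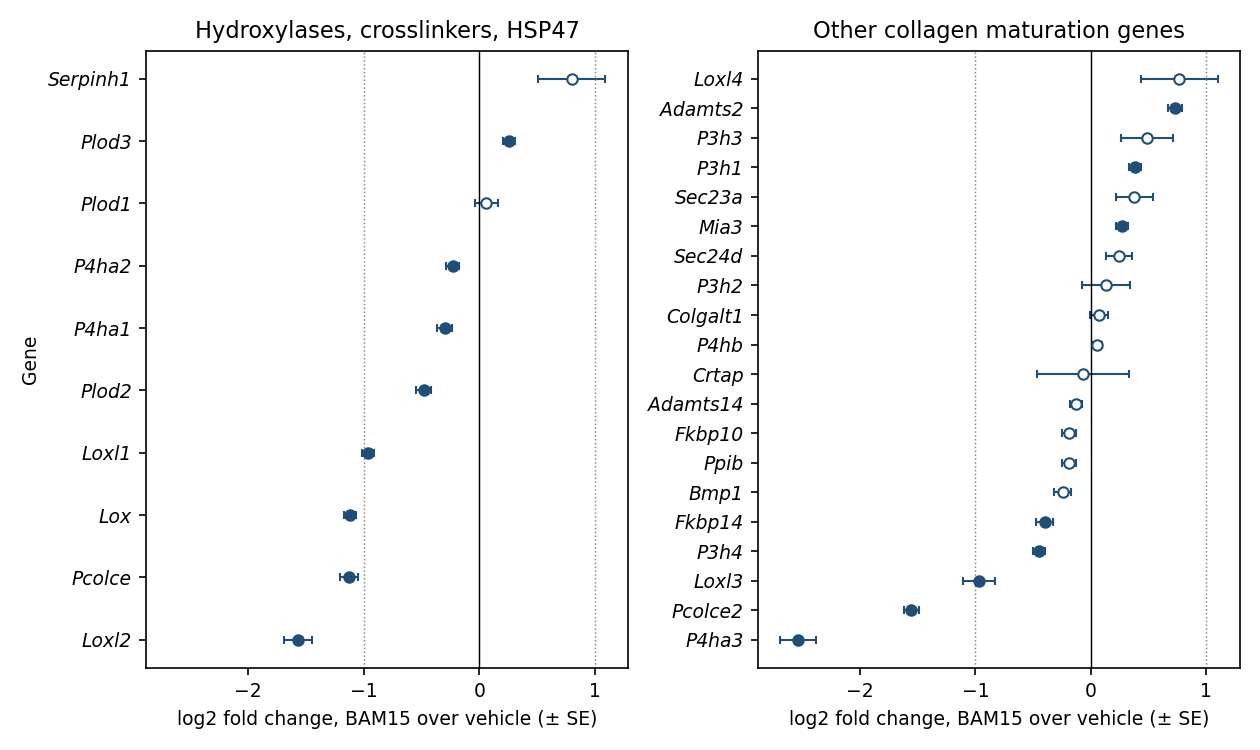
Log2 fold change of BAM15 over vehicle with its standard error for the 10 genes (left) and for 20 other genes of collagen maturation (right), with filled points for genes past adjusted p below 0.01 and base mean above 50 and dotted lines at a 2-fold change. On the left 7 filled points lie below 0 and Plod3 lies above it, and on the right filled points lie on both sides, from -2.53 for P4ha3 to 0.73 for Adamts2.

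Other genes of collagen maturation were read from the same fit. Of 24 further genes listed, 20 were tested, of which 5 fell, 3 rose and 12 did not pass, with a median log2 fold change of -0.01. Calls over all tested genes stood at 36.4% (17.7% lower and 18.7% higher), so nothing particular to the list is read from these counts. Besides P4ha3, Pcolce2 and Loxl3, the genes that fell were P3h4, which encodes a partner of lysyl hydroxylase 1 (-0.45 ± 0.05, edgeR adjusted p = 2.08e-06), and Fkbp14, a prolyl isomerase gene (-0.40 ± 0.07, edgeR adjusted p = 2.60e-04). Those that rose were P3h1, encoding prolyl 3-hydroxylase 1 (0.38 ± 0.05, edgeR adjusted p = 9.98e-06), Adamts2, encoding the procollagen N-proteinase (0.73 ± 0.06, edgeR adjusted p = 4.52e-08), and Mia3, encoding the TANGO1 receptor that loads collagen for export (0.27 ± 0.05, edgeR adjusted p = 6.73e-04). Bmp1, the gene of the C-proteinase that Pcolce enhances, had a value of -0.24 ± 0.08 and did not pass (edgeR adjusted p = 0.0134). Bmp1, P4hb and Loxl4 were chosen for mention after their values were seen. Fkbp14 and Mia3 did not pass in libraries numbered 4 to 6 alone.

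The substrates and cofactors of these enzymes were counted from the same fit. Beside these counts, 36.4% of all tested genes were called (17.7% lower and 18.7% higher), and no count near these shares is read as a result about its list. Of 18 collagen chains tested, 11 fell, 0 rose and 7 did not pass (median log2 fold change -0.49), with Col8a1 (-3.08), Col6a3 (-1.23) and Col6a2 (-0.89) changed most among the called chains whose libraries did not overlap. Of the 7 chains that did not pass, Col14a1 and Col8a2 were kept out by the base mean, and Col8a2 (-2.24, chosen after its value was seen) did not overlap either. Of 6 genes of iron, copper and ascorbate supply, 2 fell (Slc39a13, a zinc and iron transporter of the secretory pathway, at -0.37, and Atox1, a copper chaperone, at -0.34), 1 rose (the ascorbate transporter gene Slc23a2, at 0.40) and 3 did not pass (median -0.22). The call for Slc23a2 was lost without BAM15 library 6 or without vehicle library 1, 2, 4 or 5 (edgeR adjusted p up to 0.0117), with library size only (edgeR adjusted p = 0.0246) and in libraries numbered 1 to 3 (log2 fold change 0.17, edgeR adjusted p = 0.161, against 0.58 in 4 to 6). Of 11 elastic fibre genes, 5 fell, 2 rose and 4 did not pass (median -0.07), with Mfap5 at -1.05, Efemp2 at -1.01 and Ltbp1 at -0.29. Ltbp1 did not pass in libraries numbered 4 to 6 alone (edgeR adjusted p = 0.0168). Of 8 fibril-associated genes, 6 fell, 1 rose and 1 did not pass (median -0.88), with Thbs1 at -2.69, Tnc at -2.30 and Thbs2 at -1.36.

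Lists of genes with known regulators of collagen enzymes were also read. The share called over all tested genes was again 36.4% (17.7% lower and 18.7% higher), and counts near it are not read as results about a list. Of 16 HIF target genes, 3 rose, 7 fell and 6 did not pass (median -0.38), so the list moved in both directions: Ero1l, an oxidase of the endoplasmic reticulum, was at 2.64, Ndrg1 at 2.05 and the growth factor gene Vegfa at 1.69. The 7 that fell, given after their values were seen, were the glucose metabolism genes Pdk1 (-1.08) and Ldha (-1.01), the HIF prolyl hydroxylase genes Egln1 (-0.88) and Egln3 (-0.56), and Adm (-0.73), Bnip3 (-0.68) and Higd1a (-0.48). Ankrd37 (-2.11, no overlap) and Car9 (1.74, overlapping libraries), also named after their values were seen, were kept out by the base mean. Of 9 TGF-beta target genes, 5 fell, 1 rose and 3 did not pass (median -0.45), with Tagln 3.90-fold lower and the smooth muscle actin gene Acta2 at -1.39. Of 14 chaperones of the endoplasmic reticulum, 7 rose, 0 fell and 7 did not pass (median 0.33), with Hspa5, which encodes BiP, at 1.97, Sdf2l1 at 1.11 and Hyou1 at 1.02. The marker lists held 3 lower and 2 higher of 14 myotube genes (Acta1 0.46, Mylpf -0.23, Ckm -0.17), and 5 lower and 1 higher of 12 unfused myoblast genes (Msc -2.65, Notch1 -1.21, Sdc4 -1.15). The 1 higher unfused myoblast gene was more than 2-fold higher with overlapping libraries, and the highest value of that list was 1.69. They also held 10 lower of 10 cycling genes (Birc5 -2.31, Ccna2 -2.13, Mcm5 -1.93) and 2 lower of 5 tested fibroblast and adipogenic genes (Cd248 2.82-fold lower, Ly6a -1.13). In the last list Pparg was higher without overlap (2.68, 3.09 to 17.6 normalized counts in vehicle and 46.5 to 206 after BAM15) but was kept out by the base mean, and it is named after its values were seen. Each value not given as a fold is a log2 fold change, and each of the other genes named here without such a remark passed the same thresholds. The call for Mylpf was lost without any one of 9 libraries (BAM15 3 to 6 and vehicle 1, 3, 4, 5 and 6, edgeR adjusted p up to 0.0229), and that for Ckm without BAM15 library 3 or 6 or vehicle library 4 or 6 (edgeR adjusted p up to 0.0162). Mylpf also did not pass with a replicate block, with at least 10 counts required in every library or in numbers 1 to 3 (edgeR adjusted p up to 0.0642). Ckm did not pass with a replicate block or in either set of numbers (edgeR adjusted p up to 0.0523).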

How the data were processed

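RNA of C2C12 myotubes was sequenced from 6 BAM15 and 6 vehicle libraries, grouped by their titles. The authors prepared 3′ QuantSeq libraries and aligned them with BlueBee software. The aligner, annotation and counting strand are not given in the sources used here, and the submitters' processing notes name GRCm38 and DESeq2 1.22.2. The deposited counts are whole reads per Ensembl gene without normalization. The deposited normalized signal equals these counts divided by 1 size factor per library (0.836 to 1.07) and was not itself tested. Size factors recomputed by DESeq2 from the filtered counts served as 1 alternative. The tables' 11 columns of other samples were not used. GENCODE M21 gave positions and 2260 of 2293 missing symbols.

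Counts were filtered with filterByExpr, which removed 2383 genes, scaled by TMM (factors 0.932 to 1.04) and tested with edgeR 4.0.16 (robust quasi-likelihood, Benjamini-Hochberg over 12730 genes, R 4.3.3). Each edgeR SE is the absolute log2 fold change divided by the square root of its F statistic. The 95% intervals use the normal distribution with this SE, so they are approximate and narrower than the F test itself would give. Normalized counts are counts divided by the effective library size and multiplied by the mean one. Ratios were tested by exact permutation (SciPy 1.17.1). Among the 10 genes the lowest depth was that of Loxl2, with 53 to 109 reads per BAM15 library, and the precision given covers the spread between libraries. On simulated counts with 200 of 12730 genes changed by 1.5 on the log2 scale, edgeR recovered 190 with 1 other gene. The simulation held no smaller changes and no split by library number, so it does not cover the calls of smaller changes given above. Alternatives were DESeq2 1.42.0, limma-voom (limma 3.58.1), other scalings, filters and thresholds, a replicate block, subsets by number and each library left out.

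The 10 genes and the 12 lists were chosen with earlier results of these data known. Named genes were the 10, every other collagen maturation gene past both thresholds, from each other list up to 3 genes with the largest absolute change among those called and not overlapping, and the 3 chains of the collagen ratio. One gene that this rule names is not reported here.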

Additional observations from a re-analysis of the deposited data

Results flagged for a closer look

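Single libraries stood apart from the other 5 of their condition in 7 of the 114 groups of 6 libraries examined, by a gap to the nearest value that, relative to the group's range, exceeded Dixon's 95% limit. Chance alone marks about 1 in 20 groups. Only 1 of the 10 genes was among them: Loxl2 had a normalized count of 57.3 in BAM15 library 2, where the other BAM15 libraries had 88.3 to 102. The same library was low for Fkbp14 (309 against 375 to 413). BAM15 library 1 was low for Msc (20.4 against 38.9 to 43.2), BAM15 library 6 was high for Ly6a (2766 against 2277 to 2446) and BAM15 library 5 was high for Col3a1 (14402 against 11844 to 12651), a chain in the denominator of the Serpinh1 ratio. Among vehicle libraries, number 4 was high for Ckm (5470.0 against 5082 to 5180.1) and number 6 was low for Cd248 (231 against 298 to 315).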

How the results depend on the processing

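Of 240 alternative values for the 10 genes, 234 kept the direction and the side of the threshold, 3 lost the threshold and 3, all of Plod1, changed sign. The count of 8 called genes held under every tool, scaling and filter and without any single library (8 to 8), was 9 and 6 at adjusted p below 0.05 and 0.001, and was 5 in libraries numbered 4 to 6 alone, where P4ha1, P4ha2 and Plod3 did not pass. The count of 3 past the 2-fold criterion (3 to 3 without single libraries) was 4 with library size only, in numbers 4 to 6 and at a 1.5-fold criterion, and fell to 1 when the test itself was against a 2-fold change, by that test's construction. The count of 8 other collagen maturation genes was 8 to 10 without single libraries and at most 12, with a term for numbers. Plod1 was at -0.0068 with library size only, -0.16 in numbers 4 to 6 and -0.0070 without BAM15 library 2 (up to 0.12 without other single libraries). Col1a2, close to 0, was at -0.0029 with DESeq2, -0.028 with limma-voom, -0.016 with upper quartile scaling, -0.045 with library size only, -0.0042 without a filter, -0.031 with the replicate block and with a term for numbers, -0.26 in numbers 1 to 3 and -0.13 to 0.081 without single libraries. The cause was not tested. Serpinh1 stayed higher throughout (0.25 to 1.12) with adjusted p from 0.0125 to 0.0792. Scaling by library size only moved the median of all genes from 0.02 to -0.04 and turned 2382 higher and 2252 lower calls into 1957 and 2717.

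The P4ha1 share differed by -1.76 to -0.71 percentage points without single libraries, and without vehicle library 3 it passed at an adjusted exact permutation p of 0.0346 (-1.76). The Plod2 share differed by -10.1 in numbers 1 to 3 and -6.48 in 4 to 6 (-8.95 to -7.84 without single libraries). The Lox share differed by -2.31 and -1.59 (-2.33 to -1.72), and the Serpinh1 ratio by 15.9 and 47.5 (25.1 to 36.5). Exact permutations of 3 against 3 cannot go below p = 0.1. The Plod2 share and the Serpinh1 ratio had this p in both sets. For the Lox share the exact permutation p was 0.1 in numbers 1 to 3 and 0.3 in 4 to 6.

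The labels do not say that replicate numbers pair libraries. Same-numbered libraries correlated at -0.08 to 0.31 in their deviations, 4 of 6 above 0.1, and 2 of 6 BAM15 libraries correlated best with their own number, so the pairing was not used. The replicate block changed no call of the 10 genes. Under it the ratios differed by -8.28, -1.95 and 31.7 with adjusted p of 0.0625, 0.0833 and 0.0625, in exact sign permutations that cannot go below 0.03125.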
